A study of Homo sapiens with 6 samples.

Results

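Histone H3 lysine 27 acetylation (H3K27ac) and lysine 4 trimethylation (H3K4me3) were examined at 10 genes of epithelial-mesenchymal transition (EMT) among the 24135 annotated genes used. They are the cadherins CDH1, CDH2 and CDH3, the structural genes VIM and FN1, and the transcription factors SNAI1, SNAI2, TWIST1, ZEB1 and ZEB2. The genes were taken by name, and for each of them every called region that touched the gene body or the 5 kb upstream of it in hg19 was collected. The data are ChIP-seq of HSC3, an established oral squamous cell carcinoma line, 72 h after transfection with a control siRNA (siCONT) or with an siRNA against the lncRNA DLEU1 (siDLEU1-2, called siDLEU1 here). Since each siRNA and mark has a single library, differences could not be set against replicate error and no p-value was computed; the data hold 1 siRNA against DLEU1 and 1 cell line. A ChIP-seq library does not measure the transcript, so the knockdown could not be checked in these data.

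EMT is a programme in which epithelial cells loosen their junctions and take on traits of mesenchymal cells, and in carcinomas it is studied for its part in invasion. E-cadherin, encoded by CDH1, holds epithelial cells together, and the SNAI, TWIST and ZEB factors are known repressors of it that bind E-box sequences in its promoter. H3K4me3 is found mainly at promoters and H3K27ac at active promoters and enhancers.

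The autosomes and chromosome X held 19705 called H3K27ac regions for siCONT and 17672 for siDLEU1, and 58582 and 56943 H3K4me3 regions. Depth recovered from the lists was 21.5 and 29.4 M reads (M, mega) for H3K27ac and 28.4 and 22.3 M for H3K4me3, if the mappable genome is taken as 2.7 Gb. The H3K27ac libraries stood apart over the whole genome: the fragments per M reads at the strongest summit of a locus had a median siDLEU1 to siCONT ratio of 0.584, and 98.4% of 15244 loci called in both lists were below 1. For H3K4me3 this median was 1.09 over 40242 loci. Each value of the EMT genes is therefore set beside the value of its whole list.

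Each gene was described by 3 measures. The percentile is the rank of its strongest region by fold enrichment within its own list, from 100 for the strongest to 0 for no region. The covered length is the number of bp of its window inside called regions. The fragment ratio compares the fragments per M reads at the strongest summit of each locus, where a locus joins the overlapping regions of both lists, and its 95% interval (Clopper-Pearson, conditional on the sum) covers counting error only.

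The letters of 2 reference stretches show where the marks lay in relation to the sequence of CDH1 and ZEB1. Both are GRCh37 (hg19) sequence on the plus strand, which is the strand of both genes, and capitals mark CG pairs. The CDH1 summit is that of H3K27ac in siCONT, chr16:68771801-68771921, in intron 1. The ZEB1 summit is that of its strongest H3K27ac region in siCONT, chr10:31607582-31607702, upstream of the canonical transcription start site (TSS) and in an exon of an overlapping transcript.
CDH1 H3K27ac summit: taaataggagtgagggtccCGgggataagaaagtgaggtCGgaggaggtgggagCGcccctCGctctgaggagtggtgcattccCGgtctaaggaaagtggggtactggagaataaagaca
ZEB1 H3K27ac summit: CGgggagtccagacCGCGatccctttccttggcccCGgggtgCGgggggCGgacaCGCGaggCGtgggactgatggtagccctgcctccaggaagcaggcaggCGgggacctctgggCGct

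E-boxes (CAGGTG or CACCTG, which are the same site on opposite strands) were sought in the 250 bases before the canonical TSS. The outcome at CDH1 is not reported here. Among the other genes, CDH3 has 3 E-boxes, at -98, -52 and -42, ZEB1 has 2, at -242 and -85, and SNAI1 has 1, at -146. An E-box was present in 17.4% of the promoters of the 24135 genes and at least 2 were present in 2.53%. The H3K27ac region at CDH1 in siCONT reached over 19 of the 250 promoter bases, and the regions in siDLEU1 and both H3K4me3 regions began downstream of them, so most of the CDH1 promoter lay outside the regions called at this start. At CDH3, by contrast, the siCONT H3K27ac region and both H3K4me3 regions covered all 250 bases, and the siDLEU1 H3K27ac regions covered 108 of them.

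Of the 10 genes, 8 had an H3K27ac region in both siCONT and siDLEU1, and 7 had an H3K4me3 region in both. CDH2, which encodes N-cadherin, and SNAI1, which encodes Snail, had no region of either mark in any list, which leaves signal below the calling threshold unseen. FN1, which encodes the matrix protein fibronectin, had H3K27ac and no H3K4me3. Over all genes, 59.5% had an H3K27ac region in siCONT and 55.8% in siDLEU1, and for H3K4me3 the shares were 63.9% and 64.5%. None of the 8 genes was left without an H3K27ac region, as were 6.58% of the 14369 genes with a region in siCONT. At FN1, though, the siCONT and siDLEU1 regions did not overlap. None of the 7 lost its H3K4me3, against 2.9% of 15427 genes.

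**Figure D1:**
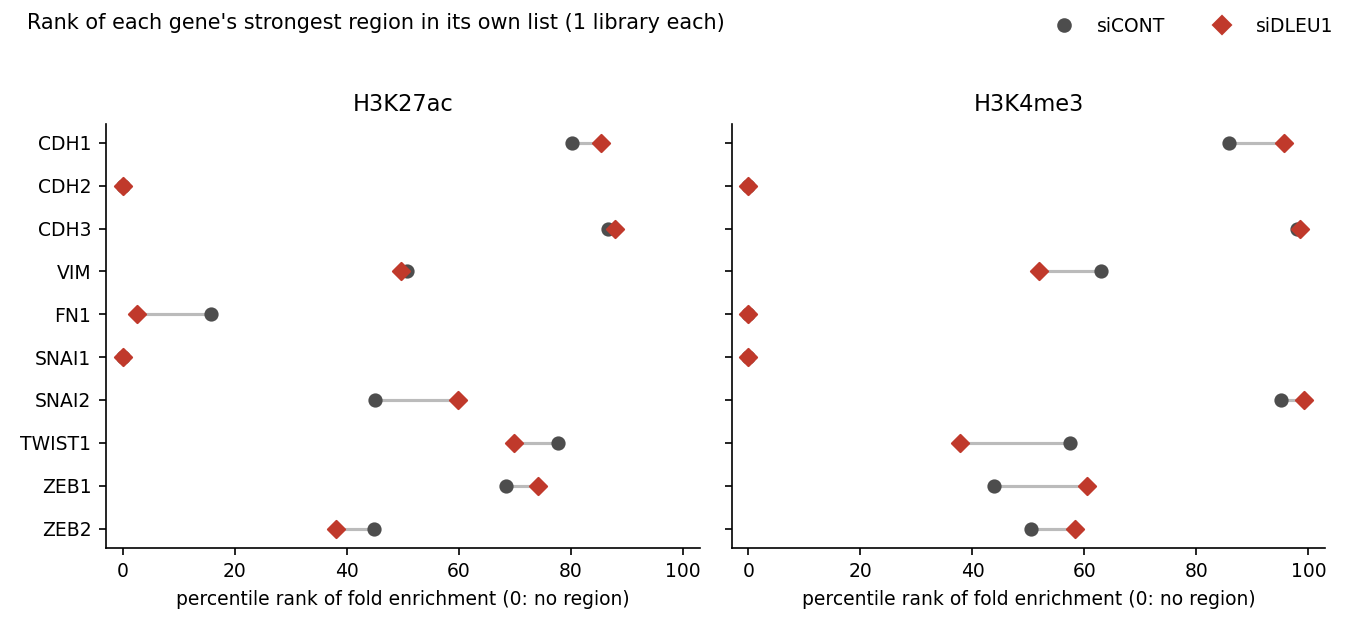
Percentile rank of the strongest region of each gene within its own list (x axis, 0 means no region) for H3K27ac and H3K4me3, with 1 point for the siCONT library and 1 for the siDLEU1 library. CDH1 and CDH3 lie above 80 in each list, CDH2 and SNAI1 lie at 0, and no gene moves by 20 points.

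In H3K27ac the direction of the ranks depended on the measure. By fold enrichment the percentile was lower in siDLEU1 at 4 of the 8 genes (VIM, FN1, TWIST1 and ZEB2) and higher at the other 4 (CDH1, CDH3, SNAI2 and ZEB1), with a median change of 0.18 points, beside -4.77 over all genes with a region in siCONT, of which 63.3% were lower. Ranked by fragments, it was lower at 7 of the 8, with CDH3, SNAI2 and ZEB1 changing sign. The change by fragments was slight at CDH3 (-0.318 points) and ZEB1 (-0.144) and was -8.79 at SNAI2. The median change by fragments was -9.11, beside -4.57 over all genes, of which 71.0% were lower. By fold enrichment none of the 8 fell by 20 points or more, as did 19.1% of all genes, and none rose by as much, as did 6.71%. Other settings took 3 of them past this limit: VIM was at -20.6 by fragments, SNAI2 at 21.2 when both lists were reduced to one size, and ZEB2 at -27.1 when regions needed a −log10 q of at least 10, since its siDLEU1 region then dropped out. The covered length was shorter in siDLEU1 at 7 of the 8 genes, with a median ratio of 0.868, where 94.2% of all genes were shorter, with a median of 0.760. It was shorter by at least 1.5-fold at 2 of 8, VIM and TWIST1, against 32.4% of all genes, and longer by as much at none, against 0.334%. Against these shares, 8 genes are too few to be told apart from the background. For a −log10 q of at least 10, CDH3 (0.621) was also shorter by 1.5-fold, and ZEB2 had no length left in siDLEU1. ZEB1 (0.507) passed the limit when regions within 1 kb were stitched, and FN1 had no length left without the upstream part.

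In H3K4me3 the percentile was lower in siDLEU1 at 2 of the 7 genes, VIM and TWIST1, and higher at CDH1, CDH3, SNAI2, ZEB1 and ZEB2. The median change was 4.01 points, beside 0.18 over all genes, where 48.6% were lower. None of the 7 fell by 20 points, as did 8.36% of genes, and none rose by as much, as did 7.14%, although TWIST1 stood at -23.1 when ranked by fragments and CDH1 at 23.3 under the same limit on q. The covered length was shorter at 5 of the 7 genes, with a median ratio of 0.882 beside 0.894 for all genes. ZEB2 was the 1 gene of 7 that was shorter by at least 1.5-fold, against 17.5% of all genes, and none was longer by as much, against 6.86%. Within 1 kb of a TSS, however, CDH1 (1.86) and CDH3 (1.56) were longer by at least 1.5-fold. When regions within 1 kb were stitched, VIM (0.625) was also shorter by as much.

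**Figure D2:**
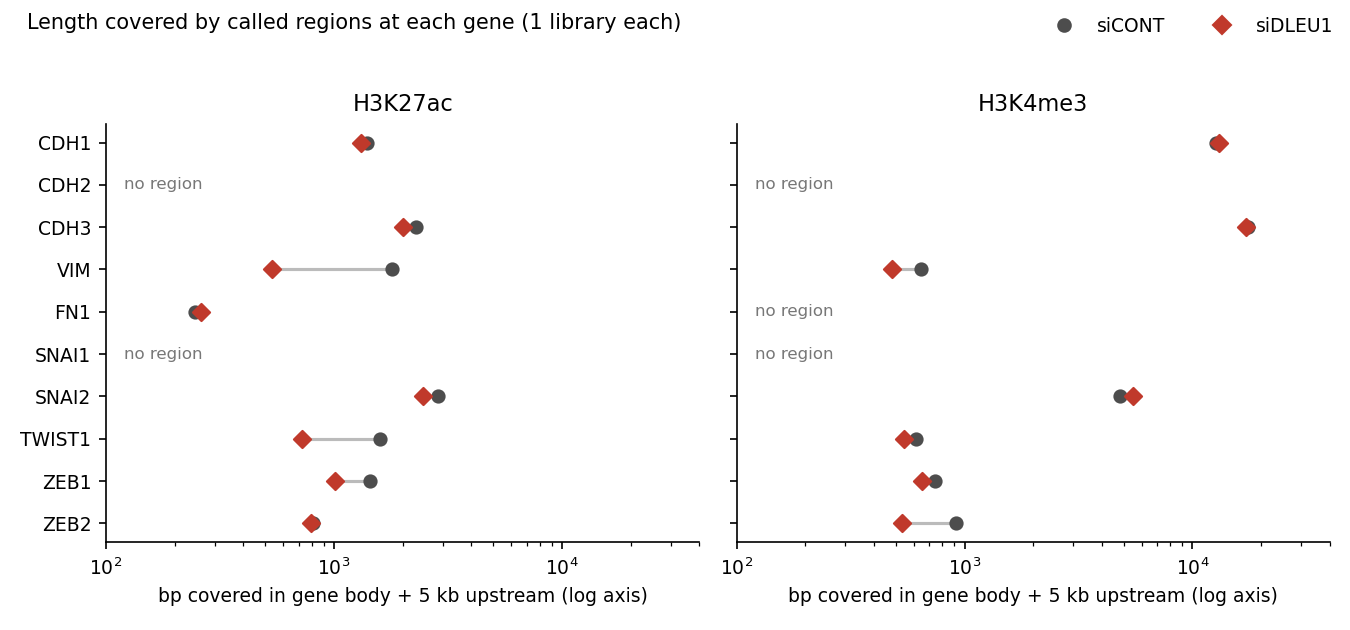
Length covered by called regions in the window of each gene, on a log axis in bp, for both marks and both siRNAs (1 library each). The siDLEU1 point lies to the left of the siCONT point for H3K27ac at 7 genes, farthest at VIM and TWIST1, and CDH1 and CDH3 carry more than 10 kb of H3K4me3 in both libraries.

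CDH1 spans 68771195 to 68869440 of chromosome 16 on the plus strand. A single H3K27ac region sat at its TSS in both libraries. It ran from 68771176 to 68772573 in siCONT and from 68771200 to 68772515 in siDLEU1, over exons 1 and 2. Its percentile was 80.2 in siCONT and 85.4 in siDLEU1, and it was 1398 and 1316 bp long. The summit held 105 fragments in siCONT and 92 in siDLEU1, or 4.89 and 3.13 per M reads, a ratio of 0.640 (0.478 to 0.855). This interval holds the median of the whole list, so the decrease at the CDH1 start was not distinguishable from that of the H3K27ac libraries as a whole. The H3K4me3 region at the same start held 120 and 86 fragments, or 4.22 and 3.85 per M, a ratio of 0.913 (0.684 to 1.21), and its percentile was 85.8 and 88.3.

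Away from its start, CDH1 carried many separate H3K4me3 regions. It had 14 in siCONT and 23 in siDLEU1, more than 97.0% and 99.4% of the genes with any H3K4me3 region in the same list. Those genes are of any length, and a longer window can hold more regions. The CDH1 regions covered 12744 and 13032 bp. Of these, 13 and 19 lay more than 1 kb from every annotated TSS of the gene, from 4.92 kb upstream to 61.8 kb downstream of the canonical TSS in siCONT, most of them in intron 2. None of them overlapped an H3K27ac region of the same siRNA. Among all H3K4me3 regions that lay in a gene window away from a TSS, 5.80% did in siCONT and 3.20% in siDLEU1. The gene-body regions were poor in CG pairs: their median ratio of observed to expected CG was 0.186 in siCONT and 0.198 in siDLEU1, and that of the siCONT region at the start was 0.672.

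The strongest H3K4me3 region of CDH1 was not in the same place in the 2 libraries. In siCONT it was the region at the start. In siDLEU1 it was a region of intron 2 from 68787833 to 68790112, 18.7 kb from the TSS, with a percentile of 95.7. The same stretch held 3 separate regions in siCONT, the strongest at a percentile of 59.2. The largest number of fragments at a summit there was 62 in siCONT and 120 in siDLEU1, or 2.18 and 5.38 per M, a ratio of 2.47 (1.80 to 3.41), the largest among the EMT genes. Reads may map ambiguously at this place: of the 31-base words in the 121 bases around the siDLEU1 summit, 30.8% occurred once in the GRCh37 reference, and 8.79% around the siCONT summit, against 100% around both summits at the CDH1 start. At the strongest gene-body summit of CDH3 in siCONT, chr16:68702621-68702741, each of these words occurred once, and its sequence is shown as an example of gene-body H3K4me3, with the 2 CG pairs in capitals.
CDH3 intron 2 summit: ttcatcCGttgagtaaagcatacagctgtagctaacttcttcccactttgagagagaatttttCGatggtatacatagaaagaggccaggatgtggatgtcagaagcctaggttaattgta

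Farther into CDH1, another locus from 68832842 to 68834258 held 46 fragments at its strongest summit in siCONT and 63 in siDLEU1, a ratio of 1.75 (1.17 to 2.61), and here all words around both summits occurred once. Next to it, 3 H3K4me3 regions with summits 63.4 to 65.5 kb from the canonical TSS, within 1 kb of other annotated starts of CDH1, were called in siDLEU1 and not in siCONT. They were of middling rank, with percentiles of 37.8, 48.2 and 46.2, and CDH1 had no H3K27ac region other than that at its start. The part of read mapping in these differences was not tested.

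**Figure D3:**
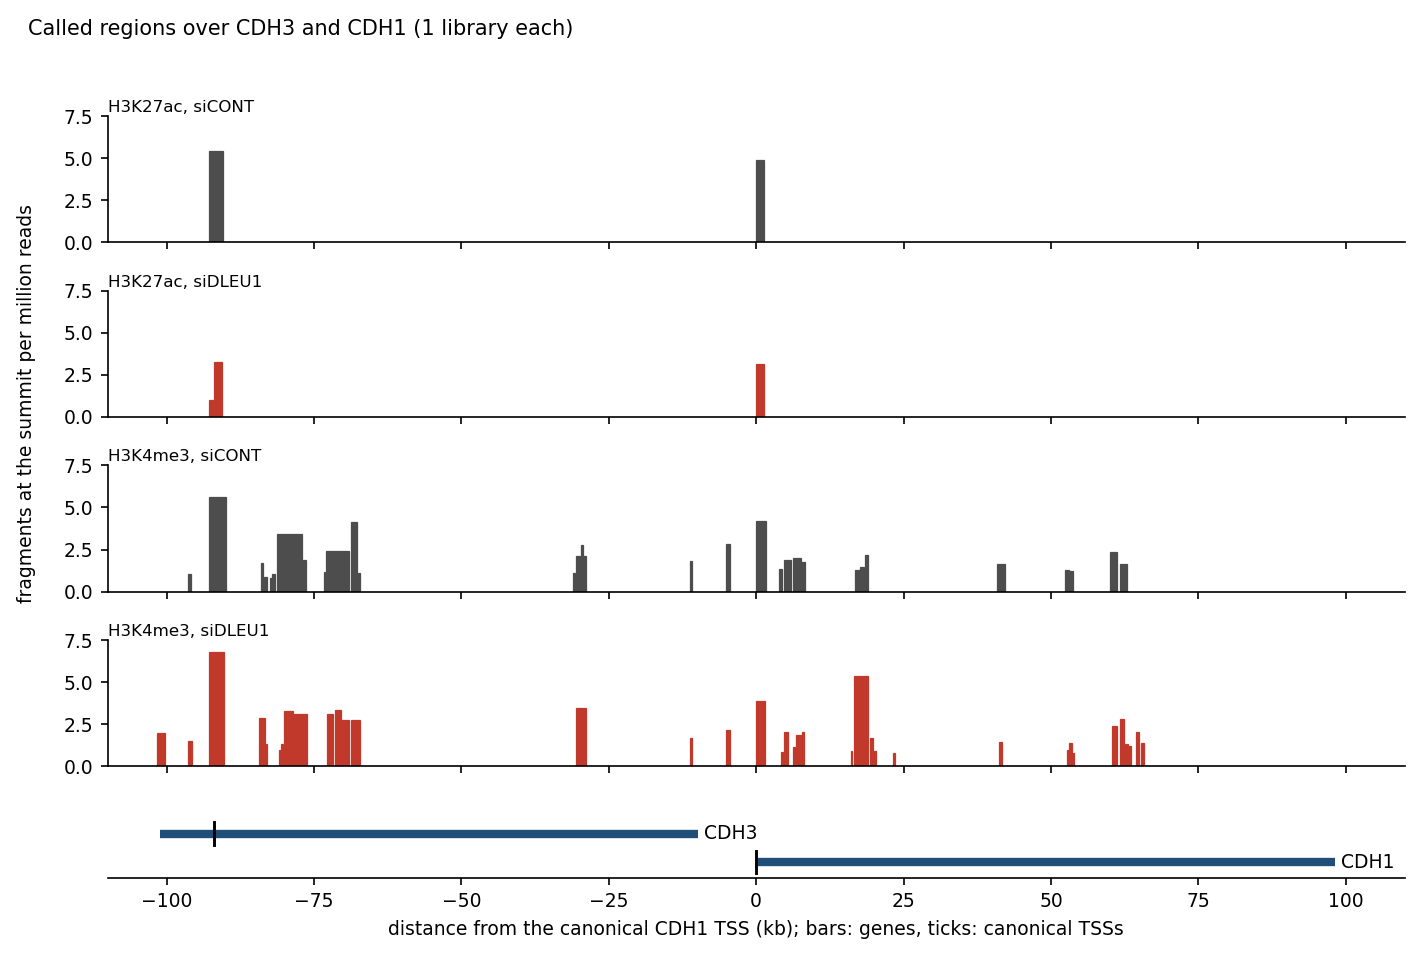
Called regions over CDH3 and CDH1, with the distance from the canonical CDH1 TSS in kb on the x axis and the fragments at the summit per M reads as the height of each box, which is as wide as the region (1 library per row). H3K27ac boxes stand at the 2 starts alone, and H3K4me3 boxes lie over parts of both genes, with gaps. The box 18.7 kb into CDH1 stands at 2.18 in siCONT and at 5.38 in siDLEU1.

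CDH3, which encodes P-cadherin of basal epithelial layers, is the upstream neighbour of CDH1 on the same strand, from 68670092 to 68761371, and had the strongest marks of the cadherins. Its H3K27ac lay at the start with a percentile of 86.7 in siCONT and 88.0 in siDLEU1. The siCONT region of 2277 bp appeared as 2 regions of 2000 bp together in siDLEU1, with 117 and 96 fragments at the strongest summit, or 5.45 and 3.27 per M, a ratio of 0.599 (0.453 to 0.792). For H3K4me3 the percentile was 98.0 and 98.6, and the region at the start held 160 and 151 fragments, a ratio of 1.203 (0.956 to 1.51). A region of 1316 bp at another annotated start, with its summit at -8.58 kb from the canonical TSS, was called in siDLEU1 alone, with 44 fragments and a percentile of 64.0. Like CDH1, CDH3 had many H3K4me3 regions in its window, 17 in siCONT and 15 in siDLEU1, that covered 17475 and 17185 bp. None lay between 68703949 and 68740117, and those farther on lay past the last exon of the canonical transcript. Of the 17 and 15 regions, 16 and 13 were away from any annotated start of the gene, and none of them overlapped H3K27ac.

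Gene-body H3K4me3 of CDH3 went both ways. The locus from 68702449 to 68703949, whose siCONT summit is shown above, held 118 fragments in siCONT and 62 in siDLEU1, or 4.15 and 2.78 per M, a ratio of 0.670 (0.484 to 0.918). The locus from 68686938 to 68688277 held 49 and 64 fragments, a ratio of 1.66 (1.13 to 2.47). In the latter, 39.8% of the 31-base words occurred once in the reference, and 95.5% in the former.

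CDH2 spans 25512843 to 25757910 of chromosome 18 on the minus strand, and no region of the 4 lists touched it or the 5 kb upstream. Its pattern, at 0 in each list, was shared by 5232 other protein-coding genes, so no gene can be named as most like it. The 3 protein-coding genes with percentiles nearest to those of CDH1 were LAMTOR2 and UBQLN4, which share a region, at a Euclidean distance of 2.35 over the 4 percentiles, and MRPL46 at 2.72. For VIM they were AP1S3 at 4.87, CDK20 at 5.55 and SFMBT1 at 5.99.

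VIM encodes the intermediate filament vimentin and spans 17270240 to 17279592 of chromosome 10 on the plus strand. It showed the shortest H3K27ac in siDLEU1 relative to siCONT. In siCONT a region of 1585 bp ran from 17271309 to 17272893 and a weak one of 203 bp lay upstream of it, and in siDLEU1 a single region of 536 bp remained, from 17272077 to 17272612. The covered length was thus 1788 and 536 bp, a ratio of 0.2998. The strongest summit, in intron 2 of the canonical transcript and within 1 kb of another annotated start, held 86 fragments in siCONT and 56 in siDLEU1, or 4.004 and 1.905 per M, a ratio of 0.476 (0.333 to 0.674), the lowest of the 9 H3K27ac loci called in both libraries. Its interval holds the list median. The percentile by fold enrichment stood at 50.7 and 49.7, whereas ranked by fragments it was 20.6 points lower in siDLEU1. The local background over which the fold enrichment is taken was 1.0 fragments (scaled to the control) at this summit in siCONT and 0.439 in siDLEU1. VIM H3K4me3 had a percentile of 62.9 and 51.8, a covered length of 644 and 481 bp, and a fragment ratio of 0.913 (0.617 to 1.34).

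FN1, at 216225163 to 216300796 of chromosome 2 on the minus strand, carried the weakest H3K27ac of the 8 genes. The siCONT region of 245 bp lay in exon 1 with 26 fragments at the summit and a percentile of 15.8. The siDLEU1 region of 262 bp lay upstream of the TSS with 22 fragments and a percentile of 2.44. The 2 regions did not overlap, so neither was called in the other library and no fragment ratio was computed.

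Among the transcription factors, SNAI2 had the strongest H3K4me3, and SNAI1, at 48599517 to 48605423 of chromosome 20 on the plus strand, had none. SNAI2 encodes Slug and spans 49830157 to 49834299 of chromosome 8 on the minus strand. Its H3K4me3 percentile was 95.1 in siCONT and 99.1 in siDLEU1, and it covered 4822 and 5503 bp in 4 regions each. The 3 siCONT regions around the start met a siDLEU1 region of 3839 bp and a smaller one beside it, and the strongest summit, upstream of the TSS, held 154 and 175 fragments, or 5.42 and 7.84 per M, a ratio of 1.45 (1.16 to 1.81), whose interval lies above the list median of 1.09. In H3K27ac, the SNAI2 locus over exons 1 and 2 held 101 and 76 fragments, a ratio of 0.5497 (0.403 to 0.748), and the locus upstream held 66 and 69, a ratio of 0.764 (0.537 to 1.09). Both intervals hold the H3K27ac list median of 0.584, so neither could be told apart from the shift of the whole list. Its H3K27ac percentile by fold enrichment, set by the upstream region, was 45.0 and 59.9, a rise of 14.91 points. Ranked by fragments, the strongest region was the one over exons 1 and 2, at 67.0 and 58.2, a fall of 8.79 points. The upstream region was at 43.8 and 50.5 by fragments, and the exon region at 38.8 and 46.7 by fold enrichment. The direction of the gene's rank thus depends on the measure and on the region that it picks.

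TWIST1, a basic helix-loop-helix factor at 19060614 to 19157259 of chromosome 7 on the minus strand, ranked lower in siDLEU1 on both marks. In H3K27ac, siCONT had 3 regions within 1 kb of an annotated start, of 1129, 239 and 228 bp, and siDLEU1 had 1, of 721 bp, so that covered length was 1596 and 721 bp, a ratio of 0.452. The percentile was 77.7 and 69.8, and the strongest locus held 101 and 74 fragments, a ratio of 0.535 (0.391 to 0.730). This interval holds the H3K27ac list median of 0.584, so the decrease could not be told apart from the shift of the whole list. In H3K4me3 the percentile was 57.5 and 37.8, the largest change of the 7 genes at -19.7 points and just inside the limit of 20, and ranked by fragments it was -23.1. The summit held 45 and 27 fragments, or 1.58 and 1.21 per M, and the ratio of 0.765 (0.456 to 1.26) holds the list median.

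ZEB1, a zinc-finger repressor at 31607424 to 31818742 of chromosome 10 on the plus strand, had its strongest region of both marks about 0.5 kb upstream of the canonical TSS. For H3K27ac the summit sequence is given above, and its 121 bases hold 11 CG pairs. The region held 136 fragments in siCONT and 111 in siDLEU1, or 6.33 and 3.78 per M, the highest H3K27ac number per M of the 10 genes, with a ratio of 0.596 (0.460 to 0.772). The percentile was 68.5 and 74.2, and covered length was 1444 and 1014 bp, since a weak region 1.33 kb into intron 1 was called in siCONT alone. The H3K4me3 region held 57 fragments in each library, a ratio of 1.27 (0.867 to 1.87), and its percentile was 43.8 and 60.4. The divergent gene ZEB1-AS1 overlaps these regions, and ChIP-seq does not assign a region to a strand.

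ZEB2, at 145121931 to 145278624 of chromosome 2 on the minus strand, differed from the other marked factors in where its marks lay. In siCONT its single region of each mark was in exon 10, 130 kb from the canonical TSS and more than 1 kb from any annotated start. The H3K27ac summit there held 56 and 47 fragments, a ratio of 0.613 (0.407 to 0.920), with a percentile of 44.8 and 38.1. The H3K4me3 summit held 39 fragments in each library, a ratio of 1.27 (0.796 to 2.04), the percentile was 50.4 and 58.4, and the region was 920 and 534 bp long. A second H3K27ac region of 214 bp, in exon 2 and within 1 kb of an annotated start, was called in siDLEU1 alone, at a percentile of 11.5 and with 29 fragments.

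**Figure D4:**
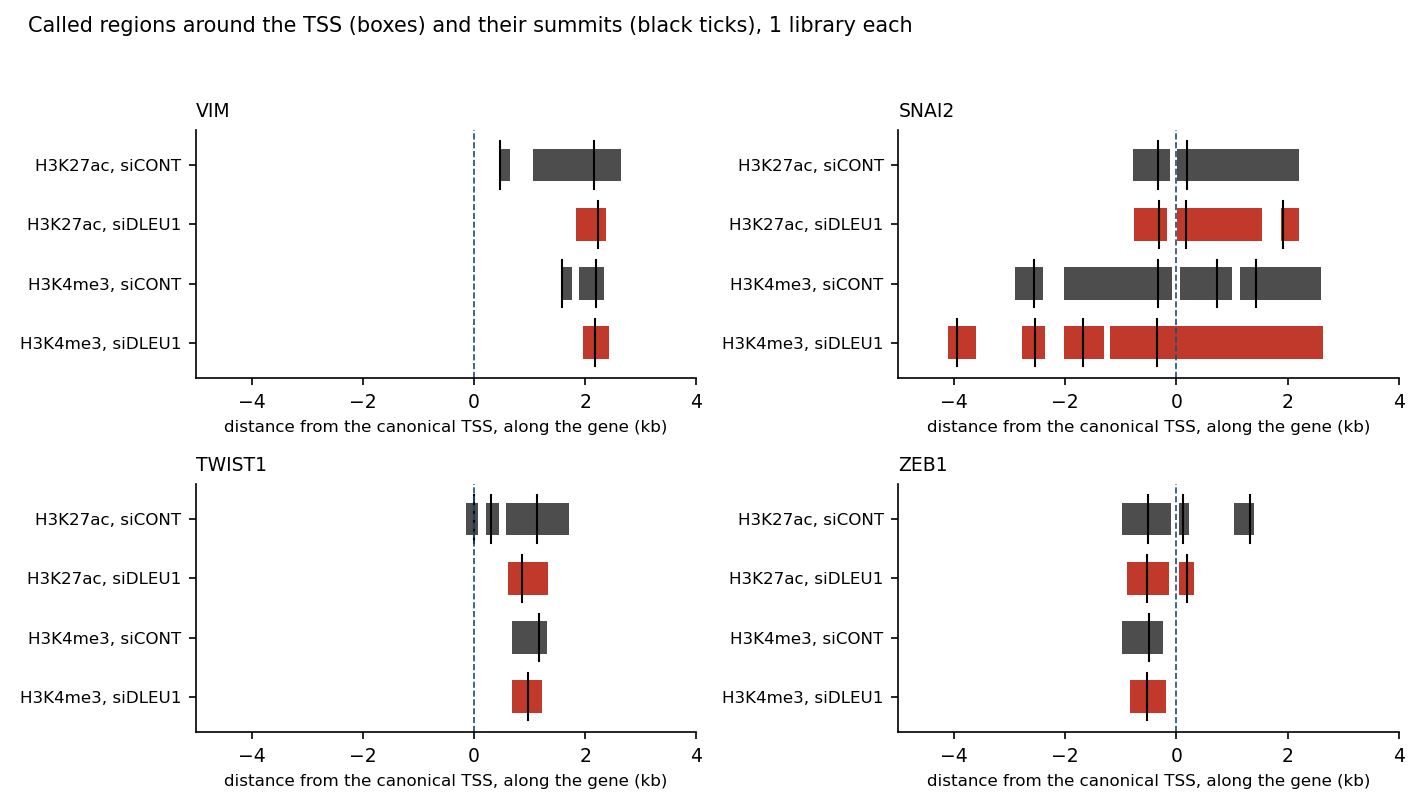
Called regions around the canonical TSS (dashed line) of VIM, SNAI2, TWIST1 and ZEB1, with the distance along the gene in kb on the x axis and 1 row per library (grey for siCONT, red for siDLEU1). Boxes are regions and black ticks their summits; the H3K27ac boxes of VIM and TWIST1 are fewer and shorter in siDLEU1, and the SNAI2 H3K4me3 boxes around the start are joined in siDLEU1.

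Over the loci of these genes, all 9 H3K27ac loci called in both libraries had fewer fragments per M in siDLEU1, with ratios from 0.476 to 0.764 and a median of 0.599 beside 0.584 for the whole list. The interval lay below 1 at 7 of them. None of the 9 lay above the list median by its interval, as did 4.19% of all loci, and none below, as did 2.89%. Of the 26 H3K4me3 loci, 15 had a ratio above 1 and 11 below it, with a median of 1.11 beside 1.09. The interval lay above the list median at 4 of 26, against 12.7% of all loci, and below it at 1 of 26, against 11.7%. These 5 loci are the 2 in intron 2 of CDH1 and the 2 in the body of CDH3 described above, and the start of SNAI2. Counts of this size are near the background, and loci of 1 gene are not independent of each other.

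**Figure D5:**
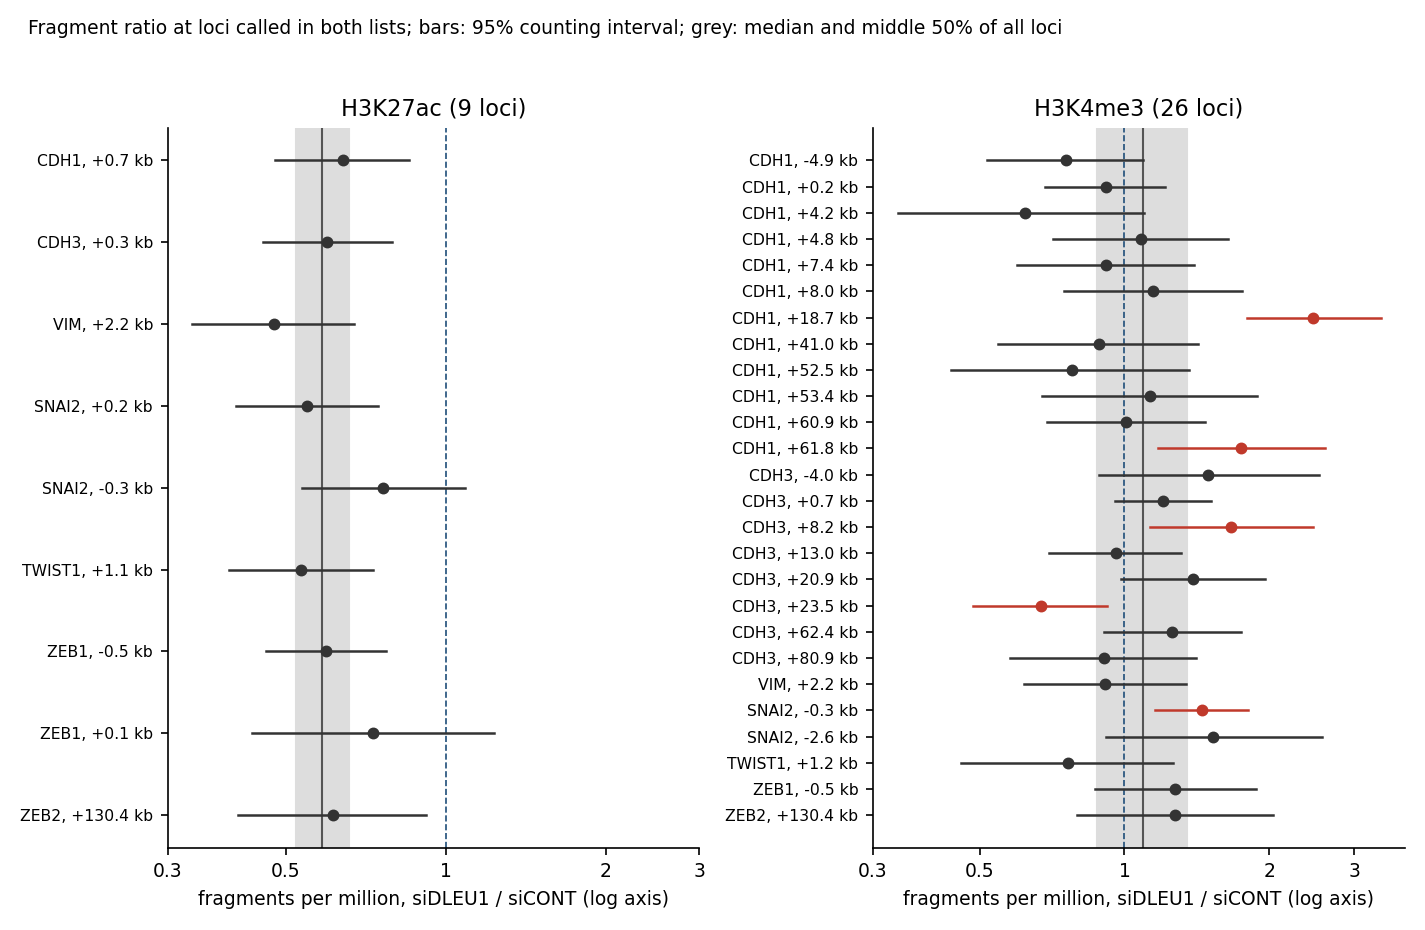
Ratio of fragments per M reads, siDLEU1 over siCONT, at each locus of the EMT genes called in both libraries, on a log axis and with 95% counting intervals; each row gives the gene and the distance of the summit from its canonical TSS. The grey line and band are the median and the middle 50% of all loci of the mark, the dashed line is 1, and red marks the 5 H3K4me3 loci whose interval leaves out the list median.

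By overlap of at least 1 bp, 9 of the 14 siCONT H3K27ac regions of these genes met a region of the siDLEU1 list (64.3%, 95% Wilson interval 38.8 to 83.7), beside 77.8% of all siCONT regions. In the other direction it was 11 of 13 (84.6%, 57.8 to 95.7), beside 98.8%. The siDLEU1 regions with no partner were the region of FN1 and the second region of ZEB2. For H3K4me3, 35 of 40 siCONT regions (87.5%, 73.9 to 94.5) and 37 of 46 siDLEU1 regions (80.4%, 66.8 to 89.3) were met, beside 76.4% and 78.8% of all regions. Of these H3K4me3 regions, the neighbours CDH1 and CDH3 held 14 and 17 in siCONT, and 23 and 15 in siDLEU1. Regions of 1 gene are not independent of each other, and the intervals for both marks cover counting of regions only.

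Other genes of EMT, from a list of 64, place these values in context. All 21 genes of the epithelial group, of junctions and epithelial transcription factors, had H3K27ac in both libraries, at a median siCONT percentile of 74.2. The percentile was lower at 13 and higher at 8, where 63.3% of all genes were lower. By at least 20 points, 3 of 21 fell and 3 rose, beside 19.1% and 6.71% of all genes. The largest falls were at ELF3, an epithelial Ets factor (93.2 in siCONT and 33.0 in siDLEU1), EPCAM, an epithelial adhesion molecule (61.6 and 34.5), and CTNND1, which encodes the cadherin-binding p120-catenin (32.1 and 11.5). The largest rises were at CTNNA1, encoding alpha-catenin (47.0 and 84.6), GRHL2, an epithelial transcription factor (62.8 and 87.4), and DSP, encoding desmoplakin (79.3 and 99.9). These are ranks by fold enrichment within each list. The covered H3K27ac length was shorter in siDLEU1 at these 3, with ratios of 0.866, 0.787 and 0.919, where 94.2% of all genes were shorter.

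Of 21 mesenchymal genes, 10 had H3K27ac in siCONT and 8 in siDLEU1. Of the 10, 2 had no region left, beside 6.58% of all genes, and 7 were lower, beside 63.3%. The collagen gene COL5A2 (percentile 44.1 in siCONT) and TNC, which encodes tenascin C (6.41), had no region left. The largest falls were at COL5A2, then at AXL, a receptor tyrosine kinase (62.3 and 26.96), and CALD1, which encodes caldesmon (39.1 and 5.33). Of the 10, 3 were higher: TGFBI, a matrix protein induced by TGF-beta (77.3 and 90.02), LOX, a collagen cross-linking enzyme (9.65 and 12.9), and SPARC, a matrix glycoprotein (60.97 and 61.24). The covered H3K27ac length had ratios of 0.858 at TGFBI, 0.771 at LOX and 1.01 at SPARC. Among 10 further transcription factors linked to EMT, 9 had H3K27ac in siCONT and 4 in siDLEU1, and all 9 were lower, beside 63.3% of all genes. SNAI3, TWIST2, FOXC2, GSC and KLF8 had no region left, from siCONT percentiles of 8.60, 39.9, 5.56, 10.8 and 23.01. TCF3, TCF4 and TEAD1 fell by less than 9 points. The group median in siCONT was 23.01, and the count of 5 stands beside the 6.58% of all genes with no region left; whether the group differs from other genes of like rank was not tested.

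All 12 genes of the TGF-beta pathway, a known inducer of EMT, kept H3K27ac, with 9 lower and 3 higher, where 63.3% of all genes were lower. The largest falls were at SMAD7, the inhibitory SMAD (43.4 and 16.1), SMAD2 (42.4 and 22.6) and SMAD3 (88.6 and 71.7), the SMADs that the receptor activates. The rises were at SKIL, a SMAD corepressor (77.9 and 89.95), and the ligands TGFB2 (46.2 and 50.5) and TGFB3 (96.4 and 98.4). In H3K4me3, 2 of the 12 rose by at least 20 points, beside 7.14% of all genes: TGFB2 (0.645 and 55.7) and SMAD7 (69.2 and 89.5). None fell by as much, beside 8.36%.

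The labelled cell type was checked on marker genes. Of 7 squamous epithelial markers, 7 had H3K27ac in siCONT and 6 in siDLEU1, with DSG3 as the exception. Of 6 fibroblast markers, COL1A1 alone had H3K27ac (percentile 15.8 and 6.11), and none of 2 endothelial and 3 leukocyte markers had any. H3K4me3 was also called at PDGFRB, CDH5, VWF and PTPRC, so this mark was less selective than H3K27ac among the markers.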

How the data were processed

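HSC3 cells were profiled with 1 ChIP-seq library per siRNA and mark. Libraries were sequenced on an Ion Proton, and the authors aligned the reads to hg19 by bowtie2 and ran MACS2 on each library, whose version and settings are not given in the sources used here. The deposited lists give the fold enrichment, a ratio to local background, and the −log10 of p and q. The 2 input libraries were not analysed here. Genes came from GENCODE v44 lifted to GRCh37 (19143 coding for proteins and 4992 for lncRNAs, each with a curated transcript in RefSeq), and no region ended past its chromosome (0 regions). Fragments at summits were solved from fold enrichment and p, and p was matched for 100% of peaks within 0.0001. On simulated lists at least 99.998% of peaks were recovered exactly (99.9982% of 56594 for the list with the lowest share). The simulated lists were made with the same formulas that the solution inverts. They check the solving step alone and could not show whether the deposited lists follow these formulas. Reads per library assume 2.7 Gb and a fragment length equal to that of the shortest region (176 to 200 bp). Share intervals are Wilson intervals. No test between conditions was made. Limits of size were 20 percentile points and 1.5-fold covered length. The genes named were the 10 EMT genes and, in each group of the EMT list, the 3 largest falls and 3 largest rises of H3K27ac percentile. Also named were genes of that list with no H3K27ac region left, and the 3 genes nearest in pattern to CDH1, CDH2 and VIM. TCF3, TCF4, TEAD1, TGFB2 and SMAD7 for their H3K4me3, and the markers with H3K4me3 were named after their values were seen. A few items that this rule would name are not reported here. Members and lists were chosen with earlier results of these data known. Unique words were exact matches of 31 bases on either strand, shorter than the reads. Python 3.11.15, numpy 2.4.6, pandas 2.3.3, scipy 1.17.1, pysam 0.24.0 and matplotlib 3.10.9 were used.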

Additional observations from a re-analysis of the deposited data

How the results depend on the processing

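No paired analysis was possible because there was 1 library per siRNA and mark, and for the same reason no library could be left out. The ratio of covered H3K27ac length over the EMT genes together, siDLEU1 to siCONT, was 0.732, and it was 0.612 for regions with a −log10 q of at least 10, 0.713 without the upstream part of the windows, 0.738 within 1 kb of a TSS, 0.703 with regions within 1 kb stitched and 0.780 when both lists were cut to one size. For H3K4me3 it was 0.999, the same to 3 digits at equal list sizes, 0.982 without the upstream part, and turned above 1 in the others: 1.18 for a −log10 q of at least 10, 1.25 within 1 kb of a TSS and 1.06 when stitched. CDH1 and CDH3 weigh most in the H3K4me3 ratio of 0.999, with 12744 and 17475 bp in siCONT. The median of the ratios of single genes was 0.882. The share of siCONT regions met rose to 87.5% for H3K27ac and 100% for H3K4me3 when stitched, and fell to 42.5% for H3K4me3 with an overlap of 50% of both regions. Lower H3K27ac percentiles were found at 7 of 8 genes when ranked by recovered fragments, with CDH3 at -0.318 and ZEB1 at -0.144 points. Ranked by −log10 p, they were found at 5 of 8, with CDH3 at -0.0758. Lower H3K4me3 percentiles were found at 1 of 4 genes for a −log10 q of at least 10. Of 168 values of single genes under these alternatives, 13 changed sign; none of these had passed a limit of size with the settings of the report, and the percentile changes that passed 20 points under an alternative are given there. At ZEB2 no H3K27ac length was left in siDLEU1 for a −log10 q of at least 10, and at FN1 none without the upstream part. Depth limits the fragment ratios, and region counts move with the calling threshold.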

Other observations

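The miR-200 family, which is known to repress ZEB1 and ZEB2, was looked at after the lists had been read. Its members come from 2 loci, and the mature sequences (RefSeq, seed of bases 2 to 8 in capitals) fall into 2 seed groups, AAUACUG for miR-200b, miR-200c and miR-429 and AACACUG for miR-200a and miR-141.
hsa-miR-200b-3p: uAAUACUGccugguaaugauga
hsa-miR-200c-3p: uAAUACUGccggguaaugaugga
hsa-miR-429: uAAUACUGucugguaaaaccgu
hsa-miR-200a-3p: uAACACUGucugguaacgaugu
hsa-miR-141-3p: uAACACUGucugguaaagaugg

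Both loci carried both marks in siCONT and siDLEU1. At MIR200C and MIR141, on chromosome 12 from 7072862 to 7073354 in hg19, the H3K27ac percentile was 85.9 in siCONT and 78.9 in siDLEU1. The strongest summit held 7.22 and 4.01 fragments per M reads. The H3K4me3 percentile was 99.7 and 98.6, with 7.91 and 9.37 fragments per M. At MIR200B, MIR200A and MIR429, on chromosome 1 from 1102484 to 1104467, the strongest regions lay upstream of the miRNAs. The H3K27ac percentile there was 71.8 and 69.8, with 4.28 and 2.52 fragments per M, and the H3K4me3 percentile was 96.4 and 85.5, with 4.92 and 4.84 fragments per M. Beside these stand the whole lists, where the median siDLEU1 to siCONT ratio of fragments per M was 0.584 for H3K27ac and 1.09 for H3K4me3. In these cells the miR-200 loci and ZEB1, which is known to repress them, were thus marked side by side in the same libraries; a ChIP-seq library pools many cells, so marks in the same cells and marks in different cells cannot be told apart.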
